A study of Mus musculus with 6 samples.

Results

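RNA sensors are the proteins with which a cell recognises RNA of viral or misplaced origin, and 9 genes for them and their adaptors were followed here through hearts of mice on chow, on a steatohepatitis-inducing diet, and on that diet plus pemafibrate. The genes were matched by symbol, and all 9 were found among the 24346 genes listed: *Ddx58*, *Ifih1*, *Dhx58*, *Ddx60*, *Trim25*, *Mavs*, *Tlr3*, *Tlr7* and *Eif2ak2*. In the N group the level of *Ifih1* rose above that of the C group. In the NP group it fell below that of the N group. Both differences passed the test with all libraries included. The rise no longer passed with any C or N library left out, and the fall with any library left out. Both directions were kept. A further 7 genes lay in the same order without passing the test, and *Mavs* overlapped between groups. Among all genes tested, N lay above C without overlap in 22.5%, and NP lay below N in 14.7%.

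The animals were male C57BL/6J mice, whose age is not given in the sources used here. The C group received normal chow. The N group received the NASH diet, which combines high fat, high cholesterol and high sucrose with bile acid, and the NP group received pemafibrate, a drug that activates PPARα selectively, at 0.1 mg/kg in addition to that diet. None of the groups sequenced here received pemafibrate on chow, so its effect without the diet cannot be read from these libraries. The labels give 3 weeks for every group, whereas the methods of the study give a longer feeding time, and the labelled tissue is heart although the extraction text names liver. Each group holds 2 libraries of whole tissue RNA. In the N and NP groups the data columns carry names of 2 kinds, one kind for replicate 1 of both groups and the other for replicate 2. Only 1 kind names a time, 3 weeks, and the C columns are of neither kind. The kinds may mark 2 sets of hearts, although the labels describe the replicates alike. Whether feeding time differed between the sets cannot be told. The labels do not say whether the replicates came from separate animals. The *P* values therefore measure the spread between libraries, which may be technical or may lie between the sets.

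RIG-I (encoded by *Ddx58*) and MDA5 (*Ifih1*) are helicases of the cytosol that bind double-stranded RNA and pass the signal to MAVS on the mitochondrial membrane, from which kinases activate IRF transcription factors and the type I interferon genes. LGP2 (*Dhx58*) is a related helicase without the signalling domains and tunes the other members of its family. TLR3 and TLR7 read RNA inside endosomes, and PKR (*Eif2ak2*) is a kinase that slows translation when it binds double-stranded RNA. Many of these sensors are themselves induced by interferon, through a transcription factor complex that binds an element called ISRE. In the heart, RNA sensors are best known from viral myocarditis.

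Because many of these genes are known to be induced by interferon, their promoters are shown first. RefSeq promoter windows on GRCm38.p6, the assembly also called mm10, run from 250 bases before to 50 bases after the start of transcription and were found for 7 of the 9 genes, not for *Dhx58* and *Tlr7*. They were searched on both strands for the ISRE core GAAANNGAAA, which reads TTTCNNTTTC on the other strand. The letters occurred in 4 of the 7 windows, those of *Ddx58*, *Ifih1*, *Eif2ak2* and *Ddx60*, and in 3.44% of 32851 windows of the same length. These 4 genes also had the largest N minus C differences of the 9 in log2(FPKM + 1), although only that of *Ifih1* was called. *Dhx58* and *Tlr7* could not be searched, and a link between the letters and the differences was not tested. The 4 windows are printed from the 5′ end to the 3′ end, with the ISRE core in capitals.
*Ifih1* (chr2:62646206-62646505, minus strand): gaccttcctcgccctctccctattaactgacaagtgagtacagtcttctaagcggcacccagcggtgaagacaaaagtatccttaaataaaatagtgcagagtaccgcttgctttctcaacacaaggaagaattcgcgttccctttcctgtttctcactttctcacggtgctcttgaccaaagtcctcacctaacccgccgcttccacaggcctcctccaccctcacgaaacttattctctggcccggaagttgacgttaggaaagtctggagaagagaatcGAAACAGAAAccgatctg
*Ddx58* (chr4:40239776-40240075, minus strand): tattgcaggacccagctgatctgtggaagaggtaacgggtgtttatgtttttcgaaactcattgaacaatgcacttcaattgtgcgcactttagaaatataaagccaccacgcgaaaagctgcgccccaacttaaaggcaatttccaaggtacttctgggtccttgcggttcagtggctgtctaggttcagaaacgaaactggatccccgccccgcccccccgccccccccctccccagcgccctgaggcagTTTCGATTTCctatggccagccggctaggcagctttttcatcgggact
*Eif2ak2* (chr17:78882523-78882822, minus strand): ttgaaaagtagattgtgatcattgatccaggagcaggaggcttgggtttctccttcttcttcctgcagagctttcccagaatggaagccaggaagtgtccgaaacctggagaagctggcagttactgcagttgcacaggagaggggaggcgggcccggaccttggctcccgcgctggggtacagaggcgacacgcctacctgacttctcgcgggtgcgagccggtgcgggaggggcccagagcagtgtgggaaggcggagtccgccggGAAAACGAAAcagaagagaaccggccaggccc
*Ddx60* (chr8:61927837-61928136, plus strand): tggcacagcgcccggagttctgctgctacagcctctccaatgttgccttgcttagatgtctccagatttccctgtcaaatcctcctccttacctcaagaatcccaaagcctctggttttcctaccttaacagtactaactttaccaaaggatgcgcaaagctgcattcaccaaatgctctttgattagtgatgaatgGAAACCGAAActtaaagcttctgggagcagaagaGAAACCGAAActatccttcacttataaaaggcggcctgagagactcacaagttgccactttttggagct

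In *Ifih1* the core lay 33 to 42 bases after the start, and in *Eif2ak2* it lay 19 to 28 bases after it. In *Ddx58* it was found on the opposite strand, 3 to 12 bases after the start. *Ddx60* held the core in 2 places, of identical letters, the nearer of which began 19 bases before the start. A second element, GAS, whose letters TTCNNNGAA are the same on both strands and which is another element of interferon-induced genes, was found in 1 of the 7 windows, that of *Eif2ak2*, and in 8.30% of all windows. A match of letters is a description and shows no binding, and a window without one may still hold a site of other letters.

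The authors gave the expression of each gene as FPKM, a read level corrected for transcript length and sequencing depth. Judged by the spacing of the lowest FPKM values, the depth was about 26100000 and 21500000 reads in the C libraries and 8160000 to 8720000 reads in the N and NP libraries. Depth and diet therefore cannot be told apart in comparisons with the C group, whereas N and NP hearts were sequenced to a similar depth. At these depths *Dhx58*, the member with the fewest reads, had about 46 to 64 reads in the C libraries, 34 to 38 in the N libraries and 18 to 21 in the NP libraries. Marker genes of cardiomyocytes, looked up to check the heart label, summed to an FPKM of at least 32358 in every library. The C libraries carried hepatocyte transcripts, with summed FPKM of 46.5 and 577 against 2.50 to 9.78 elsewhere, and replicate 2 of the C group stood apart in this respect. Atrial markers summed to 172 to 307 in the C libraries, 3665 to 5177 in the N libraries and 3748 to 6191 in the NP libraries.

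On the NASH diet, the FPKM of *Ifih1* rose 2.80-fold, from 2.47 ± 0.192 to 6.90 ± 0.621 (SD, n = 2). The ratio of the group means was 3.79 for *Ddx60*, 2.26 for *Eif2ak2*, 1.89 for *Ddx58*, 1.79 for *Dhx58*, 1.68 for *Tlr7*, 1.51 for *Tlr3*, 1.22 for *Trim25* and 1.02 for *Mavs*. Differences, written N minus C and NP minus N for the first group less the second, were tested with limma on log2(FPKM + 1), a scale on which genes of low level show smaller changes than their ratios, with Benjamini-Hochberg adjustment over the 12923 genes whose mean FPKM was at least 0.5. All 9 genes were among them. Only *Ifih1* passed an adjusted *P* value of 0.05, so that 1 of 9 members was called higher, against 1.48% of all genes. Before adjustment 7 of 9 members had a *P* value under 0.05 and were higher, against 8.24% of all genes. The N libraries lay above the C libraries without overlap in 8 of 9 members, against 22.5% of all genes. The median log2 difference of the 9 members was 0.49, and that of all genes tested was -0.03.

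When NP hearts were set against N hearts, the N libraries again served in the contrast, so this comparison is not independent of the one before. The FPKM of *Ifih1* fell to 2.49 ± 0.408 (SD, n = 2), which is 0.361 times the level in the N group, and 1 of 9 members was called lower, against 1.39% of all genes. The ratio was 0.316 for *Ddx60*, 0.495 for *Eif2ak2*, 0.528 for *Ddx58*, 0.553 for *Tlr7*, 0.566 for *Dhx58*, 0.678 for *Tlr3*, 0.789 for *Trim25* and 0.946 for *Mavs*. Before adjustment 7 of 9 members had a *P* value under 0.05 and were lower, against 5.83% of all genes. The NP libraries lay below the N libraries without overlap in 8 of 9 members, against 14.7% of all genes. The median log2 difference was -0.55, beside 0.03 over all genes tested. Compared within each kind of column name, *Ifih1* differed by -1.22 in replicate 1 and -1.14 in replicate 2, and *Ddx60* by -0.67 and -1.21.

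**Figure D1:**
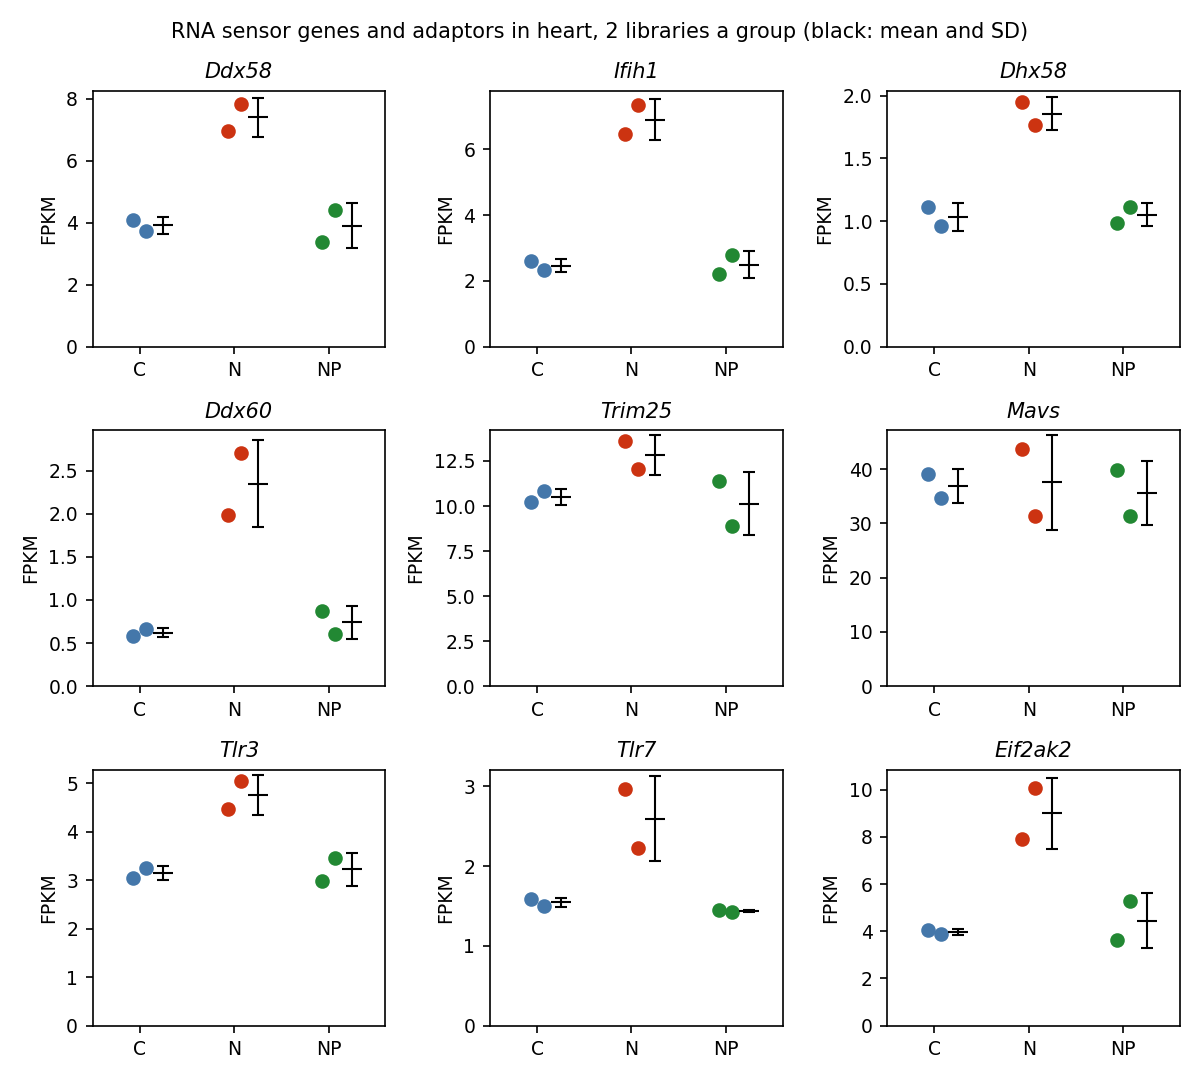
FPKM of the 9 RNA sensor genes and adaptors in each library of the C, N and NP groups, with linear axes from 0 and the mean ± SD of each group in black. In every panel other than that of *Mavs* the N libraries lie above the C and NP libraries.

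Positions are given on mm10. Among the helicases, *Ifih1* (chr2:62595618-62646255) had the largest differences in log2(FPKM + 1), whereas the ratio of group means was larger for *Ddx60*. Its FPKM was 2.602 and 2.33 on chow, 6.46 and 7.34 on the NASH diet, and 2.202 and 2.78 with pemafibrate. Both N libraries stood far above each of the others, and the C and NP libraries overlapped. The log2 difference was 1.19 for N minus C (standard error 0.14, limma adjusted *P* = 0.0189) and -1.18 for NP minus N (standard error 0.14, limma adjusted *P* = 0.0208). With either C library or either N library left out the former was no longer called, with limma adjusted *P* values from 0.0676 to 0.203. The latter was not called with any library left out (0.0689 to 0.115), with no filter on low values (0.0530) or with only the N and NP libraries in the model (0.0992), although its direction was kept throughout.

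*Ddx58* (chr4:40203777-40239825), which encodes RIG-I, had an FPKM of 4.11 and 3.73 on chow, 6.96 and 7.85 on the NASH diet, and 3.39 and 4.43 with pemafibrate. The N libraries did not overlap with the others, and the NP libraries lay on either side of the C libraries. On the log2 scale it differed by 0.77 for N minus C and -0.78 for NP minus N, and neither was called (limma adjusted *P* = 0.0856 and 0.104). The former was called in 1 alternative setting only, with every library scaled to one total FPKM (limma adjusted *P* = 0.0348). That scaling also raised the median of all genes by 0.15.

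*Dhx58* (chr11:100694884-100704271), which encodes LGP2, was the least abundant helicase of the family. Its FPKM was 1.12 and 0.958 on chow, 1.95 and 1.76 on the NASH diet, and 0.987 and 1.12 with pemafibrate. The order of the groups was that of *Ifih1* and *Ddx58*, at a lower level. This gave a log2 difference of 0.49 for N minus C and -0.48 for NP minus N, neither of which was called (limma adjusted *P* = 0.180 and 0.310).

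*Ddx60* (chr8:61928073-62037704) encodes another helicase, described as a partner of the RIG-I-like receptors. Its FPKM was 0.581 and 0.657 on chow, 1.99 and 2.71 on the NASH diet, and 0.875 and 0.607 with pemafibrate. It had the highest N to C ratio of the 9 genes and the lowest level in the C group, and the lower N library stood well above the higher NP library. The log2 difference was 1.04 for N minus C and -0.94 for NP minus N (limma adjusted *P* = 0.0559 and 0.0865). The former was called in 2 alternative settings only. These were scaling to one total FPKM (limma adjusted *P* = 0.0348) and a model without the mean trend in the variance (0.0389).

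*Trim25* (chr11:88999403-89020294) encodes a ubiquitin ligase that acts on RIG-I. Its FPKM was 10.2 and 10.8 on chow, 13.6 and 12.1 on the NASH diet, and 11.4 and 8.90 with pemafibrate. The N libraries lay above the others without overlap, and the gap to the higher NP library was smaller than the range within the NP group. Its log2 difference came to 0.26 for N minus C and -0.32 for NP minus N (limma adjusted *P* = 0.464 and 0.725).

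*Mavs* (chr2:131234063-131248025), the adaptor on which RIG-I and MDA5 converge, was the most abundant of the 9 transcripts. Its FPKM was 39.1 and 34.7 on chow, 43.8 and 31.4 on the NASH diet, and 39.7 and 31.4 with pemafibrate. In every group replicate 1 was the higher, and the range within each group was wider than the distance between the group means. The log2 difference amounted to 0.01 for N minus C, with a 95% interval from -0.48 to 0.50, and -0.07 for NP minus N, with an interval from -0.56 to 0.42 (limma adjusted *P* = 0.991 and 0.994). Smaller changes of *Mavs* than these bounds could not be seen with 2 libraries a group. Without replicate 2 of the C group the log2 difference between the N and C groups was -0.07.

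Of the endosomal receptors, *Tlr3* (chr8:45395665-45411075), whose protein binds double-stranded RNA and signals through TICAM1, had an FPKM of 3.05 and 3.25 on chow, 4.47 and 5.05 on the NASH diet, and 2.99 and 3.47 with pemafibrate. *Tlr7* (chrX:167303380-167330574), whose protein binds single-stranded RNA and signals through MYD88, had 1.58 and 1.505 on chow, 2.97 and 2.22 on the NASH diet, and 1.45 and 1.43 with pemafibrate. For both genes the N libraries were the highest. The NP libraries enclosed the C libraries for *Tlr3* and lay just below them for *Tlr7*. The log2 difference of *Tlr3* was 0.47 for N minus C and -0.45 for NP minus N (limma adjusted *P* = 0.175 and 0.323). The log2 difference of *Tlr7* was 0.49 and -0.55 in the same comparisons (limma adjusted *P* = 0.214 and 0.274).

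*Eif2ak2* (chr17:78850504-78882572), which encodes PKR, had an FPKM of 4.07 and 3.89 on chow, 7.93 and 10.1 on the NASH diet, and 3.63 and 5.26 with pemafibrate. The N libraries were again the highest, and replicate 2 exceeded replicate 1 in the N and NP groups alike, as it did for *Ifih1*, *Ddx58* and *Tlr3*. In log2 terms it differed by 0.997 for N minus C and -0.88 for NP minus N (limma adjusted *P* = 0.0807 and 0.147). The former was called in 2 alternative settings only. These were scaling to one total FPKM (limma adjusted *P* = 0.0323) and a model with the replicate number added (0.0404).

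**Figure D2:**
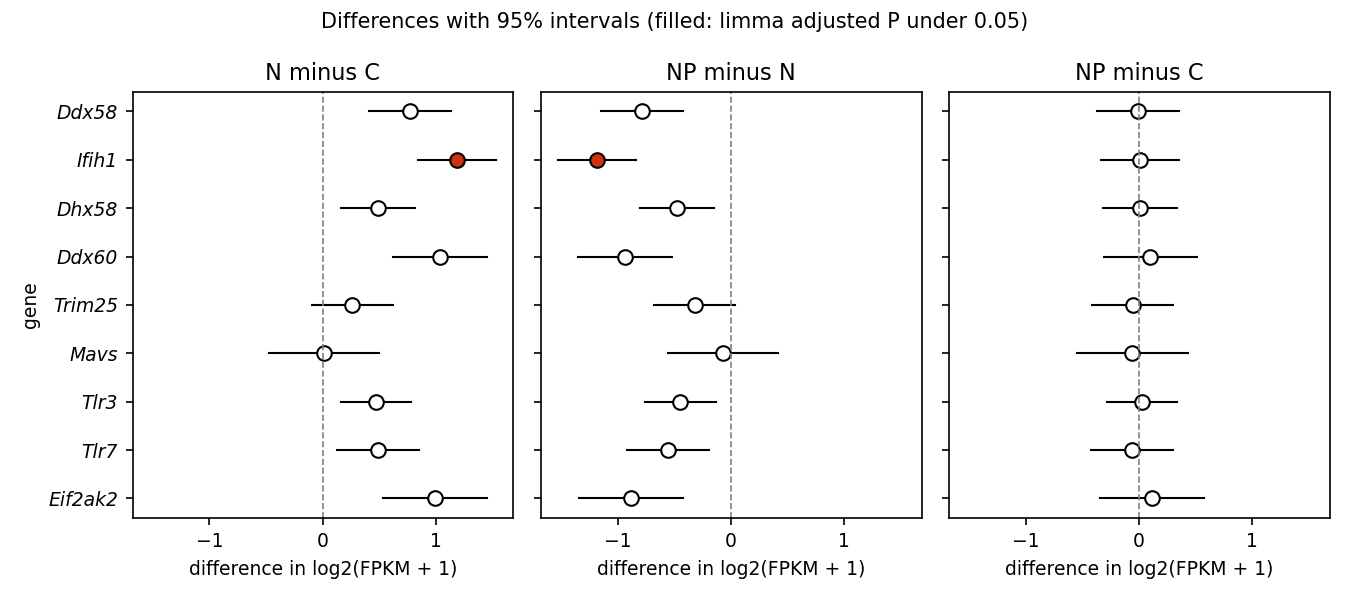
Difference in log2(FPKM + 1) of each gene between groups, with 95% intervals from limma as lines. *Ifih1* is the filled point in the N minus C and NP minus N panels, at 1.19 and -1.18, and all points of the NP minus C panel lie between -0.06 and 0.11.

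Between the NP and C groups none of the 9 genes was called in limma's test, against 0.0387% of all genes, and none had an unadjusted *P* value under 0.05, against 8.05% of all genes. The log2 differences lay between -0.06 for *Tlr7* and 0.11 for *Eif2ak2*, with a median of 0.01. The libraries of these groups overlapped for 8 of 9 genes, and *Tlr7* was lower in both NP libraries than in both C libraries, against 23.0% of all genes. The 95% interval was -0.34 to 0.35 for *Ifih1*, -0.37 to 0.35 for *Ddx58* and -0.35 to 0.57 for *Eif2ak2*, and differences inside these bounds could not be resolved. Scaling to the same total shifted the median of all genes by 0.13 in this comparison and made all 9 differences positive, between 0.03 and 0.24. The same scaling shifted the median of all genes by 0.15 for N minus C and left the 9 members positive.

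The levels of the 9 genes spanned a wide range, which FPKM allows to be compared between genes. In the C group the order by mean FPKM was *Mavs* (36.9), *Trim25* (10.5), *Eif2ak2* (3.98), *Ddx58* (3.92), *Tlr3* (3.15), *Ifih1* (2.47), *Tlr7* (1.54), *Dhx58* (1.04) and *Ddx60* (0.619), and only the neighbours *Eif2ak2* and *Ddx58* overlapped between libraries. In the N group *Ifih1* stood at 6.90, above *Tlr3* at 4.76 without overlap and beside *Ddx58* at 7.41 with overlap. *Ddx60* stood at 2.35, above *Dhx58* at 1.86. In the NP group the order was that of the C group, and *Ddx58* at 3.91 overlapped with both *Eif2ak2* at 4.45 and *Tlr3* at 3.23. Other RefSeq genes, some of them lncRNAs, overlap the spans of *Ifih1*, *Dhx58*, *Eif2ak2* and *Trim25*, introns included, and overlap of exons was not checked. As it is not stated how reads were assigned by strand, some reads of these genes may belong to their neighbours.

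The genes around the sensors were taken from lists written with earlier results of these data known, and the genes with the strongest differences in each list are named by a fixed rule. *Zc3hav1*, *Ticam1*, *Myd88*, *Tbk1*, *Irf3*, *Unc93b1*, *Tlr8*, *Tlr9*, *Tlr13*, *Eif2ak1*, *Eif2ak3*, *Eif2ak4*, *Eif2s1*, *Atf3*, *Ifnar1*, *Jak1*, *Jak2* and *Tyk2* were added after their values were seen. Of 25 regulators of the RIG-I-like receptors tested, 1 was called higher in N than in C hearts, against 1.48% of all genes, and 1 lower in NP than in N hearts, against 1.39%, with a median of -0.02 for N minus C. The called gene was in both cases *Nlrc5*, better known as the activator of MHC class I genes, which also binds RIG-I. Its FPKM was 1.32 and 0.843 on chow, 7.97 and 8.11 on the NASH diet, and 0.573 and 0.661 with pemafibrate, so that the N libraries stood apart from all others. Its log2 difference was 2.13 for N minus C and -2.48 for NP minus N (limma adjusted *P* = 0.00308 and 0.00186). *Zc3hav1*, the antiviral zinc finger protein, had a log2 difference of 0.57 for N minus C (limma adjusted *P* = 0.0964).

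Of 30 genes that carry the signal from the adaptors to IRF and NF-κB factors, 2 were called higher in the N group (1.48% of all genes) and the same 2 lower in the NP group (1.39% of all genes), namely *Irf7* and *Irf5*, both transcription factors downstream of the endosomal receptors. The FPKM of *Irf7* was 10.3 and 6.63 on chow, 45.0 and 48.3 on the NASH diet, and 8.98 and 7.83 with pemafibrate, and the C and NP libraries overlapped. Its log2 difference was 2.36 for N minus C and -2.34 for NP minus N (limma adjusted *P* = 0.00578 and 0.00599). That of *Irf5* was 1.08 for N minus C and -1.11 for NP minus N (limma adjusted *P* = 0.0293 and 0.0291). The list median was 0.15 for N minus C. The upstream members *Ticam1*, *Myd88* and *Tbk1* had log2 differences of 0.02, 0.37 and 0.14 for N minus C, none of which was called (limma adjusted *P* = 0.984, 0.293 and 0.616). Another IRF transcription factor, *Irf3*, had -0.24 and was not called either (limma adjusted *P* = 0.680).

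Of 18 genes for the other endosomal receptors and for their trafficking and processing, 2 were called higher in the N group (1.48% of all genes) and the same 2 lower in the NP group (1.39% of all genes), *Ctss* and *Pld4*. *Ctss* encodes cathepsin S, a protease of the endosome, and had log2 differences of 1.58 for N minus C and -1.97 for NP minus N (limma adjusted *P* = 0.00285 and 0.00136). *Pld4* encodes an endosomal nuclease, with log2 differences of 1.41 for N minus C and -1.44 for NP minus N (limma adjusted *P* = 0.0304 and 0.0313). The chaperone *Unc93b1*, which carries the endosomal receptors from the endoplasmic reticulum, had an FPKM of 11.3 and 10.4 on chow, 23.3 and 17.9 on the NASH diet, and 10.6 and 9.52 with pemafibrate. Its log2 difference of 0.86 for N minus C was not called (limma adjusted *P* = 0.0713). *Tlr8*, *Tlr9* and *Tlr13* had log2 differences of 0.59, 0.92 and 0.75 for N minus C, and none was called (limma adjusted *P* = 0.116, 0.0982 and 0.193). The N libraries of each were higher than the C and NP libraries. Among all genes tested, N lay above C without overlap in 22.5%, and NP lay below N in 14.7%.

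Of 19 genes of the PKR and eIF2 axis none passed limma's threshold for N minus C or NP minus N, and the list median was -0.08 for N minus C. At an unadjusted *P* value under 0.05, 1 of the 19 was lower in N than in C hearts, against 6.76% of all genes, and 1 was higher in NP than in N hearts, against 2.21% of all genes. The other eIF2 kinases *Eif2ak1*, *Eif2ak3* and *Eif2ak4* had log2 differences of 0.03, -0.11 and -0.08 between the N and C groups, and *Eif2s1*, which encodes the substrate of PKR, had -0.22 (limma adjusted *P* = 0.923, 0.860, 0.823 and 0.691). *Tarbp2*, which encodes an inhibitor of PKR, and *Atf4*, which is translated when eIF2 is phosphorylated, had -0.33 and 0.39 (limma adjusted *P* = 0.305 and 0.341). *Atf3*, a stress-induced transcription factor, had the highest difference of the list, 1.11, which rested on an FPKM of 17.1 in replicate 2 of the N group against 3.78 in replicate 1 (limma adjusted *P* = 0.444). Phosphorylation is not seen in RNA.

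Of 12 other RNA-binding interferon-induced genes tested, 4 were called higher in the N group (1.48% of all genes) and 4 lower in the NP group (1.39% of all genes), and the list median was 0.83 for N minus C. *Zbp1*, a sensor of Z-form nucleic acid, had an FPKM of 0.823 and 0.940 on chow, 10.3 and 14.6 on the NASH diet, and 0.340 and 0.760 with pemafibrate. Its log2 difference was 2.82 for N minus C and -3.11 for NP minus N (limma adjusted *P* = 0.00348 and 0.00253). *Ifit1*, whose protein binds the 5′ ends of RNA, had log2 differences of 2.38 for N minus C and -2.31 for NP minus N (limma adjusted *P* = 0.0157 and 0.0199). *Ifit3* had 2.43 for N minus C and -2.54 for NP minus N (limma adjusted *P* = 0.00852 and 0.00764), and *Oasl2* had 1.51 for N minus C and -1.07 for NP minus N (limma adjusted *P* = 0.00953 and 0.0344). The *Ifit* and *Oas* genes form families of similar sequence between which reads can be split, so these values are uncertain.

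The interferon genes themselves were hardly seen. Of 18 interferon genes, 16, including *Ifnb1*, were listed at 0 in all 6 libraries, *Ifng* was above 0 in 1 library, at an FPKM of 0.114 in replicate 2 of the N group, and *Ifnz* in 1 N and 1 NP library, at 0.0904 and 0.0934. A value of 0 in a heart library of this depth does not show that no interferon was made. None of the 6 receptor genes tested was called in limma's test, and 1 of them was higher in N than in C hearts at an unadjusted *P* value under 0.05, against 8.24% of all genes. *Ifnar1*, *Ifnar2* and *Ifngr2* had log2 differences of 0.03, 0.42 and -0.26 for N minus C (limma adjusted *P* = 0.958, 0.251 and 0.461). A list of 11 genes held signal transducers of the interferon receptors and also brakes on them such as *Usp18*. Of the 11, 5 were called higher in the N group (1.48% of all genes) and 6 lower in the NP group (1.39% of all genes). The receptor kinases *Jak1*, *Jak2* and *Tyk2* had log2 differences of 0.08, -0.00376 and -0.00869 for N minus C (limma adjusted *P* = 0.864, 0.997 and 0.991). *Irf9*, a transcription factor that takes part in binding the ISRE, had log2 differences of 1.69 for N minus C and -1.69 for NP minus N (limma adjusted *P* = 0.00308 and 0.00297). *Usp18*, a brake on interferon receptors, and the transcription factor *Irf1* had 1.39 and 1.55 for N minus C (limma adjusted *P* = 0.00830 and 0.0219). A list of cytosolic DNA sensors also held enzymes such as *Samhd1*, and 10 of its genes were tested. Of these, only *Samhd1* was called higher in the N group, 1 of 10 (1.48% of all genes), and 2 were called lower in the NP group (1.39% of all genes). *Samhd1*, whose enzyme depletes deoxynucleotides, had 1.37 for N minus C and -1.49 for NP minus N (limma adjusted *P* = 0.00332 and 0.00253), and *Ifi204* had 0.59 for N minus C and -1.04 for NP minus N (limma adjusted *P* = 0.149 and 0.0391).

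**Figure D3:**
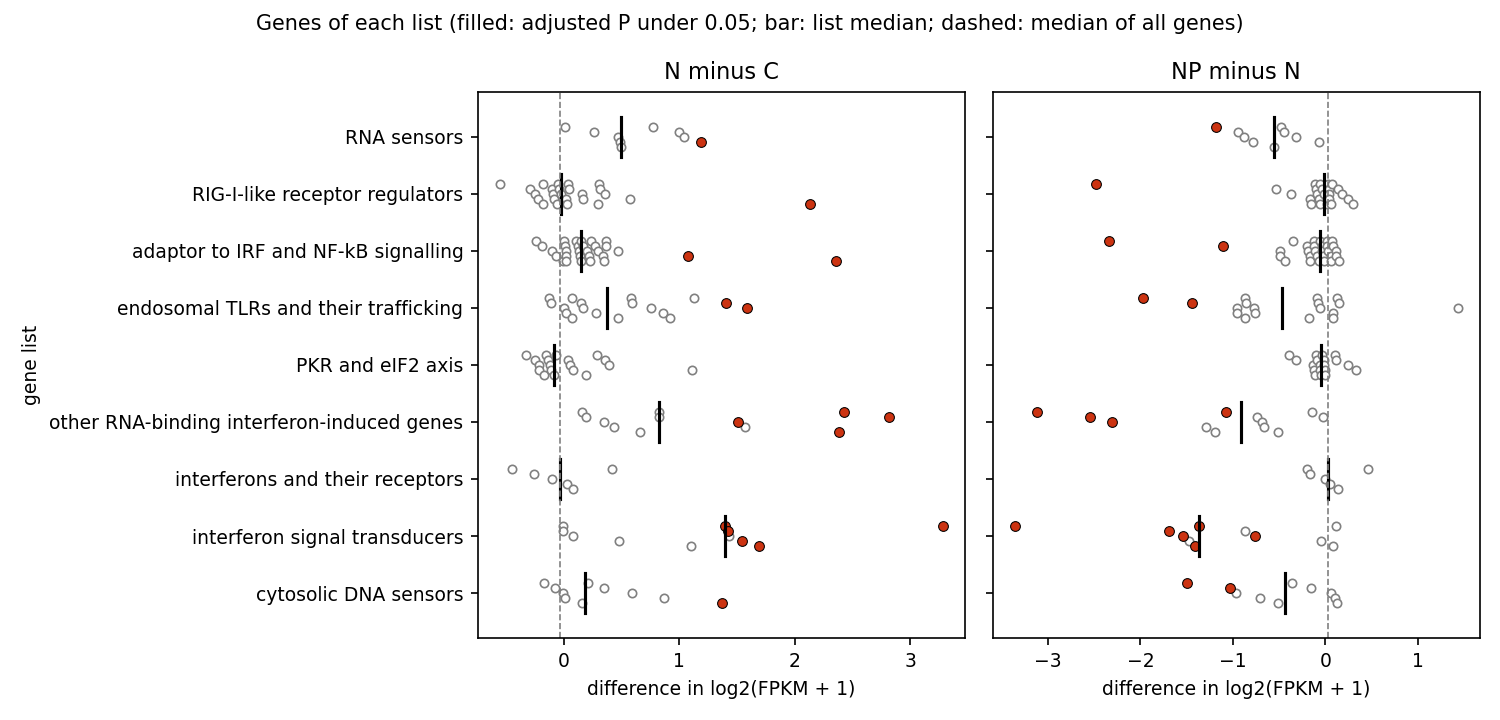
Difference in log2(FPKM + 1) of each tested gene by list, for N minus C and NP minus N, with list medians as bars and the median of all genes dashed. The medians between the N and C groups are 0.49 for the RNA sensors, 1.39 for the interferon signal transducers and -0.08 for the PKR and eIF2 axis.

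The genes most like the sensors were found by the Pearson correlation of log2(FPKM + 1) with the mean of the 9 members over the 6 libraries, among 12914 other genes tested. Among the highest were *Nckap1l*, *Uba7*, *Tpm3* and *Psmb9*, with correlations from 0.998 to 0.999. *Uba7* encodes the activating enzyme for ISG15, *Psmb9* a subunit of the immunoproteasome and *Nckap1l* a regulator of actin in blood cells. In all, 264 genes exceeded 0.95, and 6 libraries that differ mainly by group give such values readily.

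In RNA of whole tissue, more cells of a type and more RNA per cell cannot be told apart. By staining and flow cytometry the study reported more macrophages in N than in C hearts. It also reported fewer macrophages and NK cells in NP than in N hearts by flow cytometry. Whether those counts hold for the hearts sequenced here was not tested. All 8 macrophage markers were higher in the N libraries than in the C libraries without overlap, against 22.5% of all genes, and 3 were called, against 1.48%. In NP hearts 6 were called lower than in N hearts, against 1.39% of all genes. Their FPKM summed to 353 to 395 in the C libraries, 620 to 738 in the N libraries and 267 to 301 in the NP libraries, and no marker was at 0. The 7 T cell markers found summed to 3.77 to 4.38 in the N libraries and to 0.531 to 0.805 elsewhere, with *Cd3d* at 0 in both NP libraries. The 6 NK cell markers summed to 2.54 to 3.89 in the N libraries and to 0.0905 to 0.487 elsewhere, with *Eomes* at 0 in the C and NP libraries, and the 5 B cell markers summed to 5.13 to 5.46 and 0.783 to 1.28. The 5 neutrophil markers found summed to 9.98 to 12.6 in the N libraries and 2.09 to 7.63 elsewhere. These lists moved in the direction of the sensors, and their part in the sensor differences was not tested. Of the markers of plasmacytoid dendritic cells, which are rich in TLR7, *Siglech* was at 0 in both N libraries, *Klk1* was at 0.170 and 0.171 in the N libraries and at 0 in the others, *Ccr9* did not exceed 0.0854 in any library and *Pacsin1* lay between 0.117 and 0.355. *Cox6a2* and *Tcf4* of that list are also expressed in heart tissue. The part of these cells in the sensor differences was not tested.

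Cardiomyocyte markers summed to 37079 and 38788 on chow, 34330 and 32358 on the NASH diet, and 36634 and 38448 with pemafibrate, and none of the 8 was called in limma's test, with 2 lower in N than in C hearts at an unadjusted *P* value under 0.05, against 6.76% of all genes. Endothelial markers summed to 350 to 369 in the C libraries, 323 to 406 in the N libraries and 338 to 430 in the NP libraries, and fibroblast markers to 510 to 599, 659 to 712 and 615 to 749. All 5 atrial markers were called higher in N than in C hearts, against 1.48% of all genes, their summed levels overlapped between the N and NP libraries, and their part in the sensor differences was not tested. Adipocyte markers summed to 2.09 and 9.32 on chow, 184 and 90.0 on the NASH diet, and 15.99 and 74.4 with pemafibrate, so that this list too was highest in the N libraries, and its part in the sensor differences was not tested. Without replicate 2 of the C group, which held the most hepatocyte transcripts, the log2 difference of *Ifih1* for N minus C was 1.13. The median log2 difference of the sensors was then 0.51, with 8 of 9 positive. *Ifih1* was no longer called in that fit, nor with any other C or N library left out. The loss of the call was therefore not particular to this library.

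**Figure D4:**
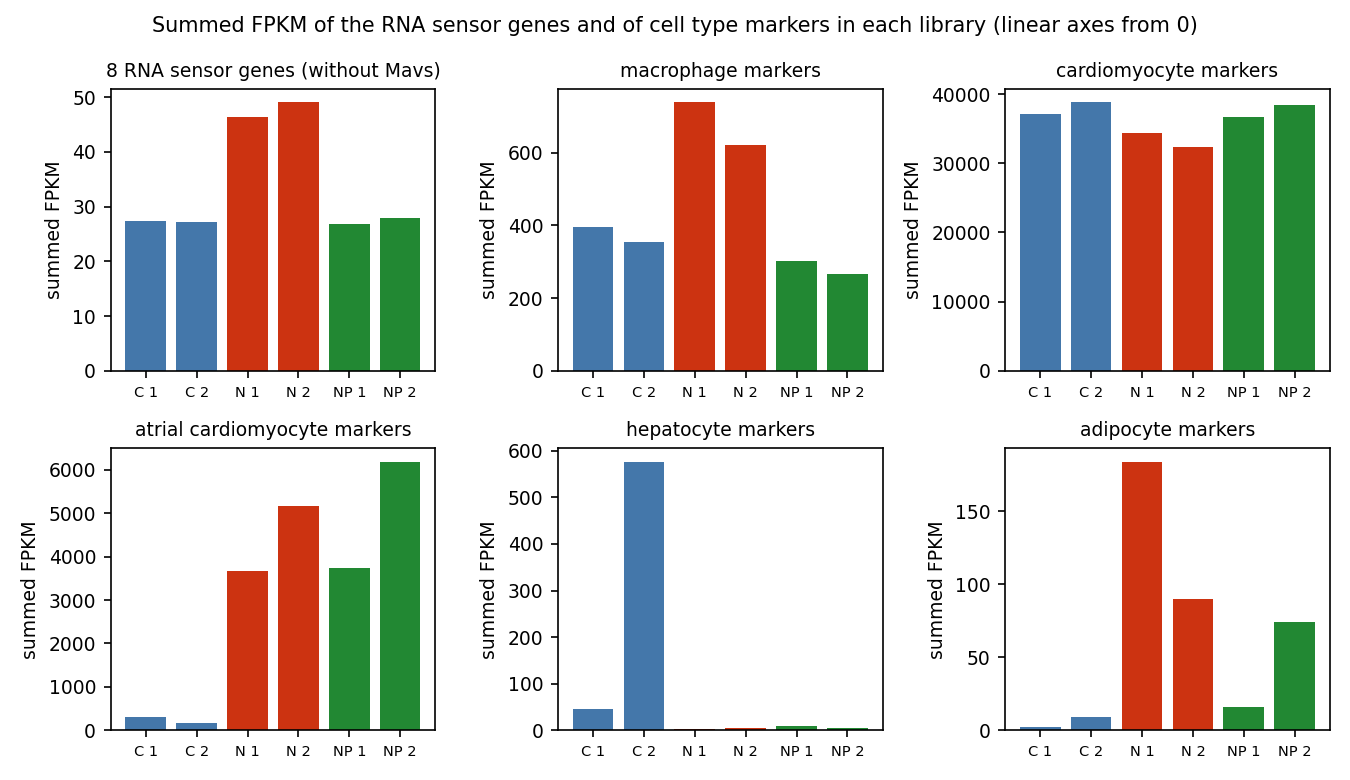
Summed FPKM per library of 8 RNA sensor genes, without *Mavs*, and of 5 marker lists, on linear axes from 0 and coloured by group. The sensor sum is 46.3 and 49.0 in the N libraries and between 26.9 and 28.0 in the other 4, and the macrophage and adipocyte sums are also highest in the N libraries.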

How the data were processed

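Each of the 3 groups gave 2 heart libraries, sequenced as 75-base single-end reads. Per the labels and the methods of the study, the authors aligned the reads to mm10 with TopHat2 2.0.13 and Bowtie2 2.2.3, used SAMtools 0.1.19, and deposited one FPKM value per gene and library from Cufflinks 2.2.1. The gene annotation and the strand setting are not given in the sources used here. As FPKM is normalized to length and depth, no counts were tested. Depth was estimated from the spacing of low FPKM values in 4349 genes with 1 transcript, with 73.6% to 78.7% of values within 0.1 of whole reads, so whole reads were not recovered and read numbers are approximate. At this depth a count of 0 allows up to 3 reads, which covers counting error only.

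FPKM values were compared with limma 3.58.1 in R 4.3.3, as log2(FPKM + 1) in 1 model of the 3 groups with a mean trend in the variance and 3 residual degrees of freedom. A mean FPKM of 0.5 or more was required, and *P* values were adjusted by Benjamini-Hochberg over the 12923 genes left, with a threshold of 0.05. An exact two-sided permutation test of 2 libraries against 2 cannot go under 0.333 and was not used. The code was tested on simulated data.

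The 9 members and all lists were chosen with earlier results of these data known. Named genes were the 9 members, up to 4 called genes of each list by the size of the moderated statistic between N and C or, where none was called, the first 2, interferon genes above 0, and the 5 genes most correlated with the mean of the members. Not every gene so named is reported here. The replicate numbers were not taken as pairs in the model, since the labels do not say that a number marks a shared set. The column names tie the numbers by kind in the N and NP groups, though not in the C group. Deviations of libraries with the same number had Pearson correlations of 0.05 between C and N, 0.12 between C and NP, and 0.46 between N and NP. The Spearman correlations, taken on ranks, were higher, at 0.23, 0.26 and 0.55 in the same order. Alternatives were another pseudocount, filter, scaling, model or moderation, a replicate block, and leaving out each library.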

Additional observations from a re-analysis of the deposited data

How the results depend on the processing

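With 2 libraries a group, the number of calls depended on single libraries. *Dhx58*, the sensor with the fewest reads, rested on about 18 to 64 reads a library. With FPKM scaled to the same total, 313 genes and 4 of the 9 sensors were called between the N and C groups, in place of 200 and 1, and 10 genes between the NP and C groups in place of 5. With a replicate block, for which the column names give a basis in the N and NP groups only, these became 328 genes and 2 sensors (*Ifih1* and *Eif2ak2*) between the N and C groups and 20 genes between the NP and C groups, with 200 genes and 1 sensor for NP minus N. When the mean trend was dropped, 2 sensors were called between the N and C groups. With only the N and NP libraries in the model 78 genes and 0 sensors were called between these groups, in place of 179 and 1, and with no filter 0 sensors. Between the NP and C groups 12 genes were called with a pseudocount of 0.1 and 0 with no filter. With 1 library left out, the lone library being assumed to vary like the others, 49 to 183 genes and 0 to 1 sensors were called between the N and C groups, 67 to 108 genes and 0 sensors between the NP and N groups, and 5 to 101 genes between the NP and C groups, the last without replicate 1 of the C group. Without replicate 1 of the C group the directions changed as well. More genes were then called lower than higher in N against C hearts, whereas most were called higher in the main fit. The cause of these shifts was not tested.

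The sensors other than *Mavs* kept their direction in both comparisons with the N group under every alternative. For *Mavs* the difference between the N and C groups ranged from -0.22 to 0.24, and that between the NP and N groups from -0.30 to 0.16, when 1 library was left out. Between the NP and C groups, where no sensor was called under any alternative, signs turned. Scaling to the same total gave 0.11 for *Ddx58*, 0.0316 for *Tlr7*, 0.0943 for *Mavs* and 0.087 for *Trim25*, and quantile normalization gave -0.0108 for *Ifih1*, -0.0149 for *Dhx58* and 0.00159 for *Mavs*. With 1 library left out the difference ran from -0.16 to 0.14 for *Ddx58*, from -0.11 to 0.13 for *Ifih1*, from -0.045 to 0.0664 for *Dhx58*, from -0.10 to 0.33 for *Eif2ak2*, from -0.00996 to 0.21 for *Ddx60*, from -0.0579 to 0.11 for *Tlr3*, from -0.22 to 0.11 for *Mavs* and from -0.22 to 0.10 for *Trim25*.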
